A study of Homo sapiens with 6 samples.

Results

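The genes described here are 48 genes of mitotic entry and the mitotic spindle, taken by their symbols from a table of 20811 genes, and all 48 were found in it. They were compared between HuCCT1/CD90+ and HuCCT1/CD90- cells with 3 libraries per line. HuCCT1 is an established human line of intrahepatic cholangiocarcinoma, a cancer of the bile ducts inside the liver. The HuCCT1/CD90+ line had received a lentivirus with human THY1-CMV-GFP (THY1 encodes CD90), and the HuCCT1/CD90- line the Lenti-CMV-GFP-2A-Puro-Blank virus, both at an MOI of 40 and both with the viral CMV promoter in their names. Both lines were grown in RPMI with serum, the labels name no drug, and whether each line is a pool or a clone is not given in the sources used here. Total RNA was read with the Ion AmpliSeq Transcriptome panel, 1 amplicon per gene, and the values are RPM, the reads of a gene scaled to the total of its library. The libraries held 8587634 to 10551516 reads. Reads of THY1 numbered 0, 1 and 0 in HuCCT1/CD90- and 435, 445 and 680 in HuCCT1/CD90+, as their labels would have it. The study addressed the molecular profile of cells with CD90, and the comparison below sets the transcripts of the division machinery of both lines side by side.

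Entry into mitosis is driven by CDK1 bound to A- and B-type cyclins. WEE1 holds this kinase off by phosphorylating it, and the CDC25 phosphatases remove that mark. Polo and Aurora kinases then build the spindle, kinetochore proteins tie chromosomes to microtubules, kinesins move them, the spindle checkpoint holds the anaphase-promoting complex (APC/C) until every chromosome is attached, and cytokinesis parts the daughter cells. The transcripts of many of these genes rise together late in the cell cycle, and they are therefore often read as a sign of dividing cells. In RNA from a whole culture, more cells in mitosis and more RNA per cell cannot be told apart.

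Many promoters of late cell cycle genes hold a short element called CHR, with the letters TTTGAA, and CCAAT boxes ahead of it. Both were searched on both strands in the promoter windows of RefSeq (GRCh38.p14), which run from 250 bases before to 50 bases after a transcription start. The table held 50 windows for 40 of the 48 genes. TTTGAA lay in 64.0% of them against 15.2% of all 35116 windows, CCAAT in 76.0% against 34.6%, and TTTAAA, a variant of the CHR letters, in 30.0% against 12.2%. Within the last 100 bases before the start, a span chosen after the positions were seen, TTTGAA and CCAAT occurred together in 28.0% of the windows of these genes and in 0.923% of all windows. A match gives letters only and is no evidence of a bound factor. Shown are the 8 genes described below library by library whose window holds the CHR letters before the start, so that the genes that rose can be set beside those that did not pass the test. Each line gives 90 bases, 5′ to 3′ on the strand of the gene, with TTTGAA and CCAAT on either strand in capitals.
ANLN: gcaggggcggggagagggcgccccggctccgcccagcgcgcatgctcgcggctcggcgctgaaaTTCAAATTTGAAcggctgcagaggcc
CENPA: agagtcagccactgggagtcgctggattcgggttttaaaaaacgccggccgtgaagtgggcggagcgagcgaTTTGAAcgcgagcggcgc
ECT2: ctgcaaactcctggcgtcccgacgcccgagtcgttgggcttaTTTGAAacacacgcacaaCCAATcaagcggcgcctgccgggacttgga
CDK1: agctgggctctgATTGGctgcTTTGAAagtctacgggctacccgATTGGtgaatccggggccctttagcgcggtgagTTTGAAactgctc
PLK1: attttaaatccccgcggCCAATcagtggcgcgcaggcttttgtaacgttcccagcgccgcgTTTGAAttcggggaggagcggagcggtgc
CDC20: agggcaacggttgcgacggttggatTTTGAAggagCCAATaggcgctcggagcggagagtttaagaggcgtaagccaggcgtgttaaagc
KIF11: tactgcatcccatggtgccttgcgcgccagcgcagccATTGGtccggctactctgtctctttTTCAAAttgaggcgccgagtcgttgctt
TOP2A: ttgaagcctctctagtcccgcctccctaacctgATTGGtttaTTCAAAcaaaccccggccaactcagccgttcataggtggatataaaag
In 6 of these genes the stretch ends at the base before the start, while in ECT2 it spans the bases 157 to 68 before the start and in TOP2A the bases 193 to 104. The stretches lie on GRCh38.p14 at chr7:36389772-36389861 for ANLN, chr2:26785966-26786055 for CENPA, chr3:172750569-172750658 for ECT2, chr10:60778388-60778477 for CDK1, chr16:23678799-23678888 for PLK1, chr1:43358891-43358980 for CDC20, chr10:92593040-92593129 for KIF11 and, on the minus strand, chr17:40418000-40418089 for TOP2A. The CHR letters nearest to the start lay 29 bases before it in PLK1 and 28 in KIF11, with a CCAAT box at 73 and 53 bases. In the stretches of CDC20 and ECT2 the order was the reverse, with CCAAT at 55 and 97 bases and the CHR letters at 65 and 115. The 90 bases of CDK1 held 2 copies of each. ANLN and CENPA, which rose, held the CHR letters 20 and 18 bases before the start and no CCAAT in the stretch shown. All 8 genes shown were picked for holding these letters, so they cannot tell whether the letters go with a rise. None of the 4 windows of CDC25B, which fell, held TTTGAA, and neither did the window of CCNA2, which rose. WEE1, which also rose, had no window.

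Few genes of the division machinery passed the test between the lines, and those that did came from different steps of mitosis. The test was that of limma on log2(RPM + 1), with Benjamini-Hochberg adjustment across the 20811 genes, and each log2 change below is HuCCT1/CD90+ minus HuCCT1/CD90- on that scale. At an adjusted p of at most 0.05, 5 of the 48 genes rose (WEE1, ECT2, ANLN, CENPA and CCNA2), 1 fell (CDC25B) and 42 did not pass, where 9.41% of all genes rose and 9.52% fell. This is 12.5% of the genes, against 18.9% of all genes in the table and 28.4% of the 8794 genes averaging 10 RPM or more, a level that 45 of the 48 reached, so these genes were not called more often than others. Their median log2 change was 0.14, and that of all genes averaging 10 RPM or more was 0.012. For 28 of the 48 genes the 95% confidence interval lay within a 2-fold change in either direction. At a fold change of 1.5 and an unadjusted p of at most 0.05, the thresholds of the study's methods, 8 genes passed, or 16.7% against 20.1% of all genes. The libraries of the lines did not overlap for 14 genes that were higher and 6 that were lower in HuCCT1/CD90+, together 41.7% against 35.0% of all genes and 52.5% of those averaging 10 RPM or more. None of the 48 genes was at or under 3 reads in every library of a line. With replicate number as a blocking term, since libraries with the same number deviated together, 4 of these 6 calls were lost (CDC25B and ANLN at an adjusted p of 0.055, CENPA at 0.076 and CCNA2 at 0.090), WEE1 and ECT2 stayed, and BUB1 and TOP2A were gained, 4 calls in all against 13.1% of all genes. The number of calls also depended on the test: on the whole reads recovered from the RPM values, edgeR and DESeq2 called the same 20 genes (16 higher and 4 lower), which is 41.7% of the 48 against 44.4% and 37.0% of the genes each tool tested.

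**Figure D1:**
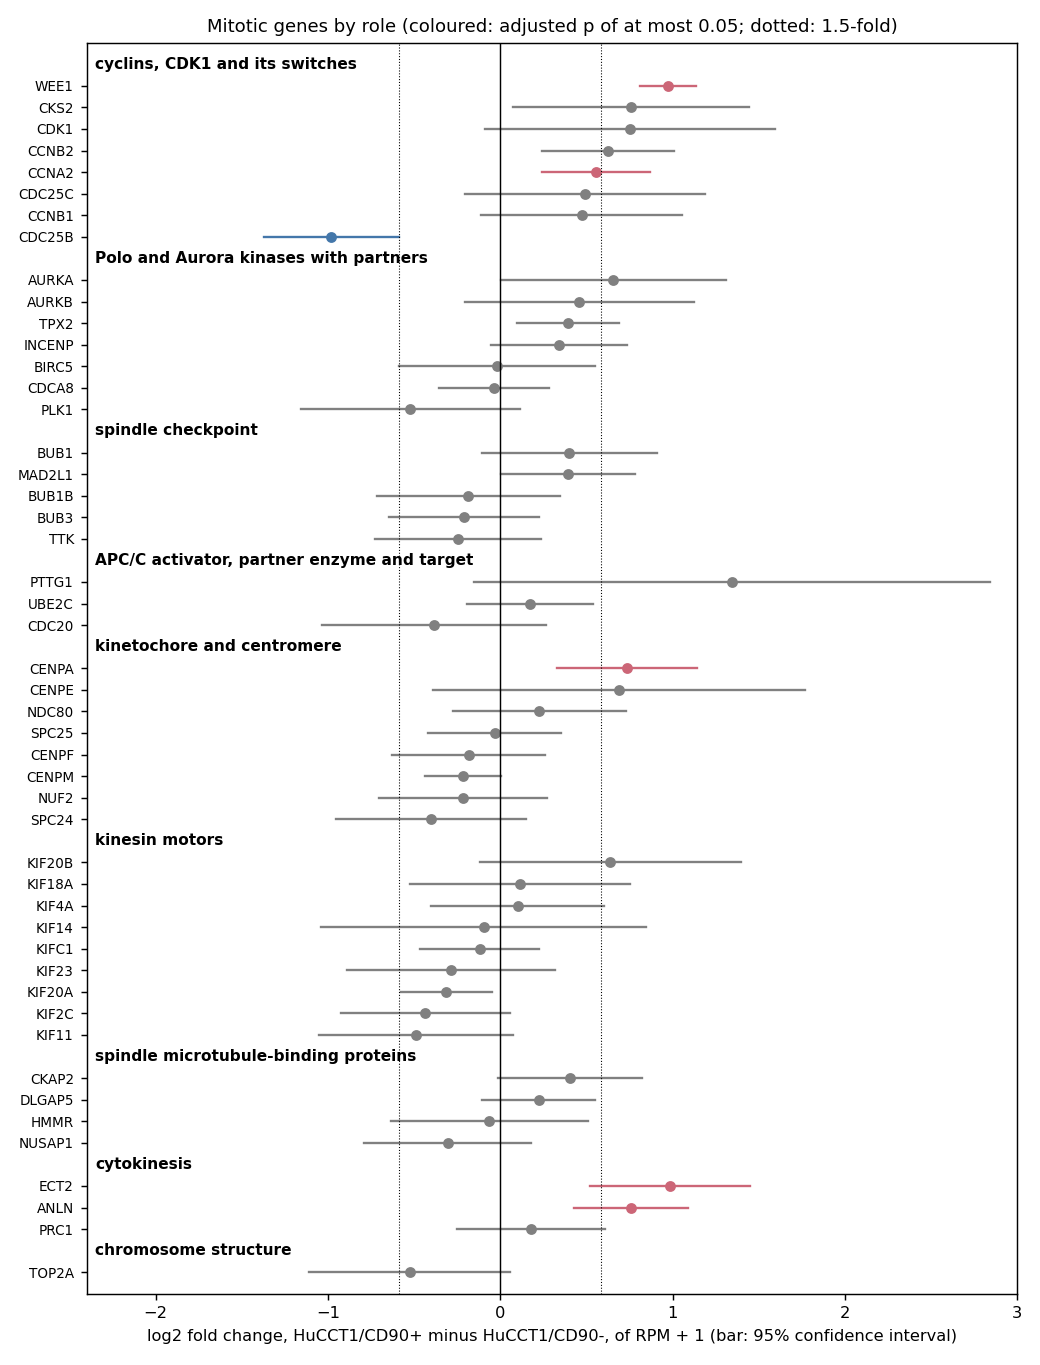
Log2 changes of RPM + 1 between HuCCT1/CD90+ and HuCCT1/CD90- for the 48 genes, grouped by role, with 95% confidence intervals from limma as bars and dotted lines at 1.5-fold. Coloured points passed an adjusted p of 0.05, red for the 5 higher and blue for the 1 lower gene, and most of the others lie within the dotted lines with intervals that include 0.

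Among the 8 genes of the CDK1 switch, WEE1 and CDC25B, which act on CDK1 in opposite directions, moved in opposite directions. WEE1, the kinase that inhibits CDK1, had 10.99, 11.02 and 12.2 RPM in HuCCT1/CD90- against 23.4, 24.7 and 22.1 RPM in HuCCT1/CD90+. The lines were far apart and their libraries did not overlap. The mean rose from 11.4 ± 0.702 to 23.4 ± 1.28 RPM (mean ± SD of 3 libraries), and the log2 change was 0.98 (SE 0.06, adjusted p = 0.0018). Its adjusted p was between 0.0069 and 0.013 with any 1 library left out and 0.035 with replicate number as a blocking term, but 0.053 without both libraries numbered 1. WEE1 lies on chromosome 11 of GRCh38.p14 from 9573670 to 9589985.

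CDC25B, a phosphatase that activates CDK1, had 334, 469.8 and 445 RPM in HuCCT1/CD90- against 202, 207 and 216 RPM in HuCCT1/CD90+. Every HuCCT1/CD90+ library was below every HuCCT1/CD90- library, and the spread was wider in HuCCT1/CD90-. The mean fell from 416 ± 72.3 to 208 ± 7.26 RPM (mean ± SD of 3 libraries), and the log2 change was -0.98 (SE 0.15, adjusted p = 0.017). With replicate number as a blocking term the adjusted p was 0.055. Without 1 library it was 0.0037 and 0.049 when HuCCT1/CD90- replicate 1 or 2 was left out and 0.064 to 0.066 when any of the other 4 was. CDC25B lies on chromosome 20 from 3786951 to 3806115. CDC25C, the related phosphatase, was low at 4.2 to 10.1 RPM in all libraries and overlapped between the lines (log2 change 0.49, adjusted p = 0.30).

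CCNA2, which encodes cyclin A2, had 64.0, 65.1 and 61.4 RPM in HuCCT1/CD90- against 110.3, 89.9 and 82.9 RPM in HuCCT1/CD90+. The libraries did not overlap, and HuCCT1/CD90+ replicate 1 was the highest. The mean rose from 63.5 ± 1.87 to 94.4 ± 14.2 RPM (mean ± SD of 3 libraries), and the log2 change was 0.55 (SE 0.12, adjusted p = 0.041), or 0.090 with the block. The call was kept without HuCCT1/CD90+ replicate 1 (adjusted p = 0.025) and lost without any of the other 5 libraries (0.053 to 0.13). The gene lies on chromosome 4 from 121816444 to 121823883.

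CDK1 itself and its other partners were all higher in HuCCT1/CD90+ by value without passing the test. CDK1 had 93.1, 71.3 and 107 RPM in HuCCT1/CD90- against 219.6, 112 and 140.3 RPM in HuCCT1/CD90+, with a log2 change of 0.75, a 95% confidence interval from -0.09 to 1.59 and an adjusted p of 0.20. CCNB1, the gene of cyclin B1, had 164, 136 and 150.2 RPM against 280.1, 187 and 172 RPM (log2 change 0.47, interval -0.11 to 1.05, adjusted p = 0.24). In both genes the libraries did not overlap, and HuCCT1/CD90+ replicate 1 stood well above the other HuCCT1/CD90+ libraries. Without that library the log2 change was 0.48 for CDK1 and 0.26 for CCNB1. CCNB2 was just above the threshold, with 98.5 to 127 RPM against 162 to 204 RPM (log2 change 0.62, adjusted p = 0.0503). CKS2, a small subunit that binds CDK1, had 45.4 to 67.3 RPM against 78.4 to 124 RPM (log2 change 0.76, adjusted p = 0.13). With edgeR and DESeq2, 7 of the 8 genes of this group were called, all but CDC25C, where the tools called 44.4% and 37.0% of all genes they tested. Among them CDK1 had an adjusted p of 0.0038 with edgeR and 0.0013 with DESeq2.

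**Figure D2:**
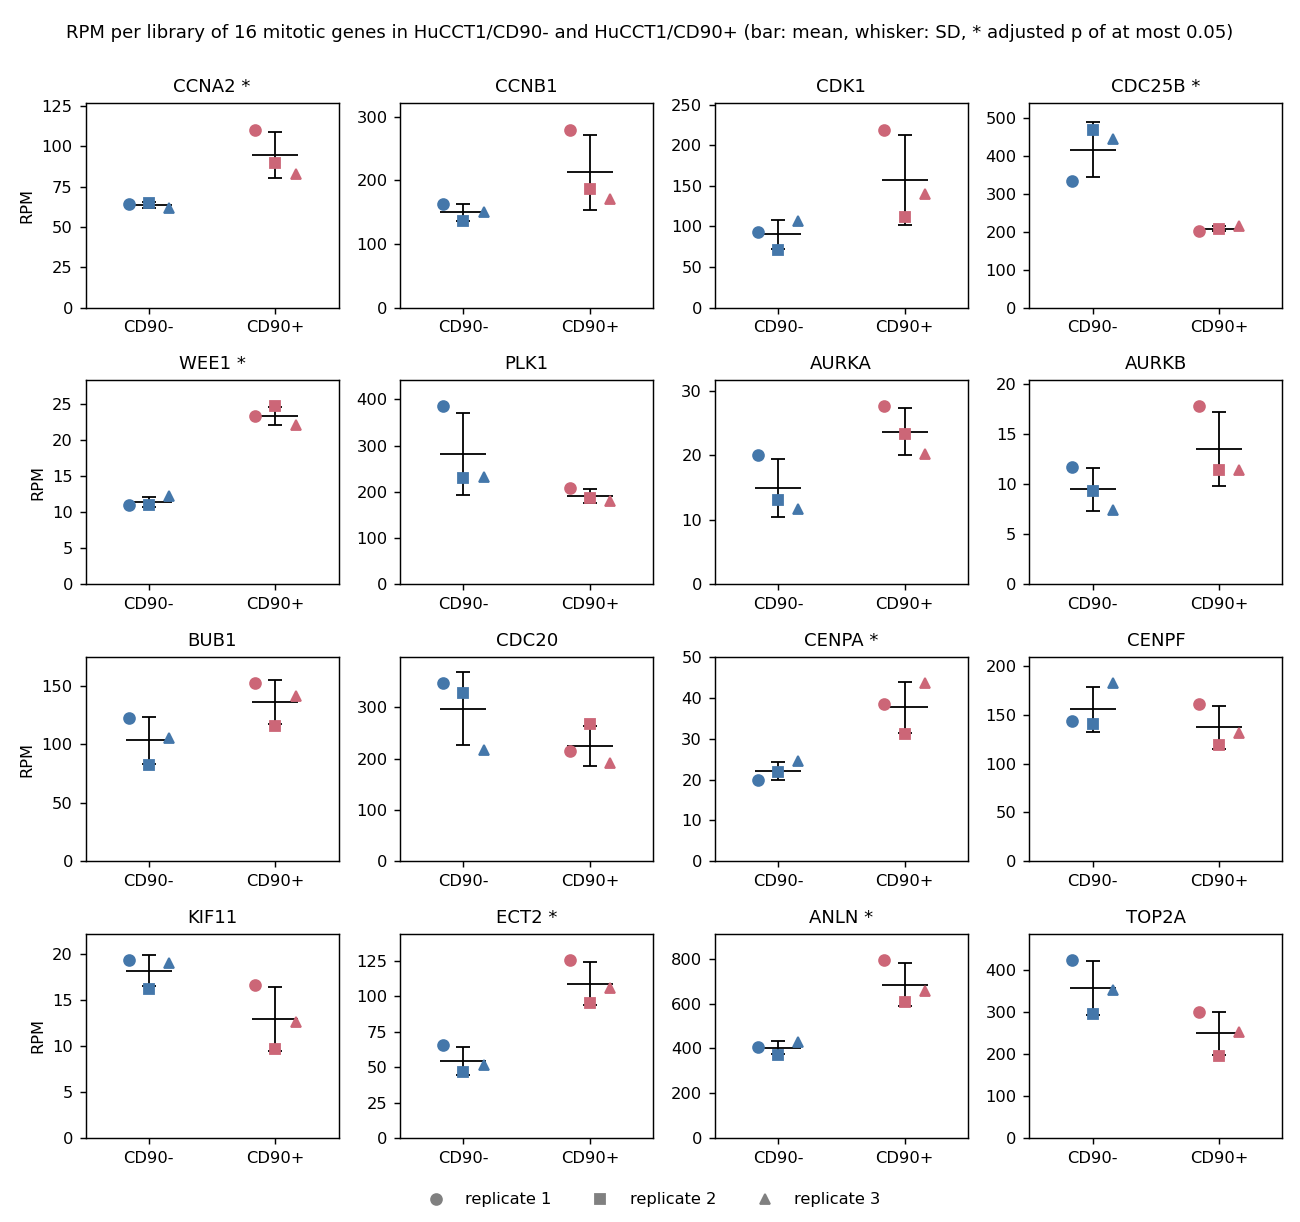
RPM of 16 mitotic genes in each library, in linear panels that start at 0, with the mean as a bar and the SD over 3 libraries as whiskers, and an asterisk at an adjusted p of at most 0.05. WEE1 and CDC25B part the lines in opposite directions, whereas for CDC20, CENPF, BUB1 and TOP2A the libraries of the lines overlap.

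Of the 3 genes of cytokinesis, 2 rose and 1 did not pass the test, where 9.41% of all genes and 14.3% of those averaging 10 RPM or more rose. Neither of the 2 passed with the median of its chromosomal neighbours taken off, as described further on. ECT2, which encodes an activator of the RhoA GTPase at the cleavage furrow, had 65.7, 46.8 and 51.4 RPM in HuCCT1/CD90- against 125, 95.3 and 106 RPM in HuCCT1/CD90+. No libraries overlapped. The mean rose from 54.6 ± 9.86 to 108.9 ± 15.2 RPM (mean ± SD of 3 libraries), and the log2 change was 0.99 (SE 0.17, adjusted p = 0.026), and the adjusted p was 0.017 with replicate number as a blocking term. It passed without HuCCT1/CD90- replicate 1 (adjusted p = 0.028) and not without any of the other 5 libraries (0.057 to 0.091).

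ANLN, the gene of anillin, which links actin, myosin and septins in the contractile ring, had 407, 371 and 429 RPM in HuCCT1/CD90- against 793, 606 and 655 RPM in HuCCT1/CD90+. All 3 HuCCT1/CD90+ libraries were above all HuCCT1/CD90- libraries. The mean rose from 402 ± 29.1 to 685 ± 96.8 RPM (mean ± SD of 3 libraries), and the log2 change was 0.76 (SE 0.12, adjusted p = 0.021), or 0.055 with the block. It passed without HuCCT1/CD90+ replicate 1 (0.031) or 2 (0.038) and not without any of the other 4 libraries (0.060 to 0.072). PRC1, which bundles the microtubules of the spindle midzone, had 19.9 to 29.1 RPM against 25.0 to 29.9 RPM, with a log2 change of 0.18 (95% confidence interval -0.25 to 0.61).

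ECT2, ANLN and WEE1 lie where neighbouring genes had positive values too. ECT2 is on chromosome 3 from 172750726 to 172829265, and the 50 nearest genes averaging 10 RPM or more had a median log2 change of 0.56. ANLN is on chromosome 7 from 36389862 to 36453791, where the median was 0.47 over the 50 nearest genes and 0.52 over the 401 genes of the chromosome. With the median of the neighbours taken off, an alternative chosen after the data were seen, ECT2 had a log2 change of 0.43 (adjusted p = 0.20) and ANLN of 0.29 (adjusted p = 0.23). With the median of the chromosome taken off, ECT2 passed (adjusted p = 0.049) and ANLN did not (0.31). The number of gene copies was not measured, and its part in these values was not tested. The neighbours of WEE1 had a median of 0.35, and with it taken off its log2 change was 0.64 in place of 0.98 and still passed (adjusted p = 0.0055). CDC25B (0.013) and CENPA (0.039) passed with the neighbours taken off, and CCNA2, with a log2 change of 0.38, did not (0.11). The same step moved values on chromosome 1, whose 954 genes had a median of -0.32: CENPF, NUF2 and KIF14 had negative log2 changes before this step and, without passing the test, positive ones after it, of 0.14, 0.13 and 0.19. CDC20 and KIF2C, also on chromosome 1, moved from -0.38 to -0.15 and from -0.43 to -0.21, and to -0.06 and -0.12 with the chromosome median taken off. MAD2L1 moved from 0.40 to 0.15 in both steps and AURKA from 0.66 to 0.43 with the neighbours taken off, while INCENP moved from 0.34 to 0.10 and CCNA2 from 0.55 to 0.31 with the chromosome median taken off. Over the 48 genes, 2 were called higher and 1 lower with the neighbours taken off and 3 and 1 with the chromosome median taken off, against 16.0% and 16.4% of all genes.

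**Figure D3:**
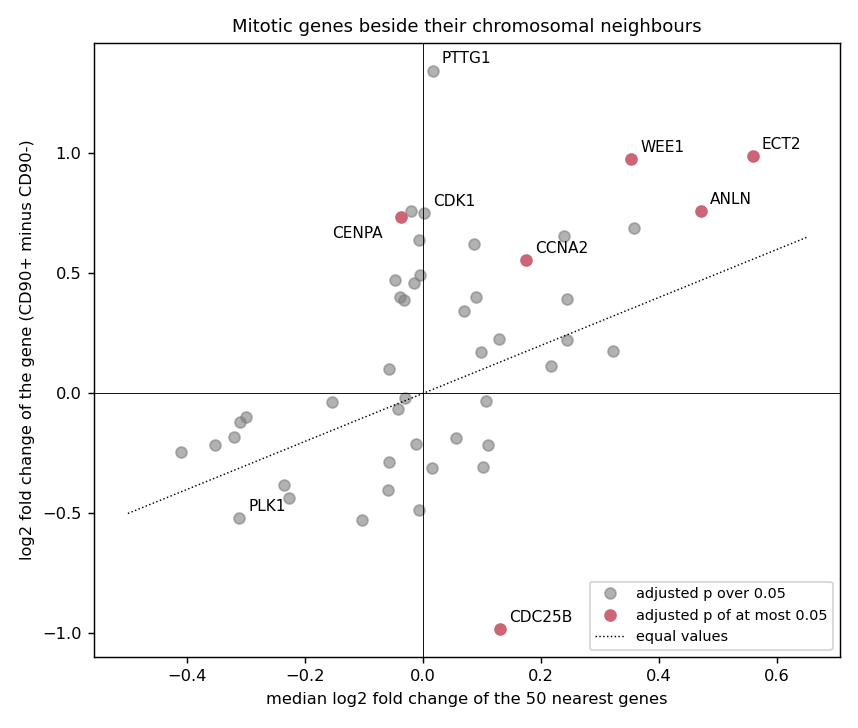
Log2 change of each of the 48 genes against the median log2 change of the 50 nearest genes on its chromosome, with a dotted line where both are equal and red points for an adjusted p of at most 0.05. ECT2 and ANLN sit at neighbour medians of 0.56 and 0.47, while CDC25B fell among neighbours with a median of 0.13.

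Of 8 kinetochore and centromere genes, 1 rose and 7 did not pass the test. CENPA, the histone H3 variant that marks the centromere, had 19.9, 21.9 and 24.4 RPM in HuCCT1/CD90- against 38.5, 31.1 and 43.5 RPM in HuCCT1/CD90+. The libraries did not overlap. The mean rose from 22.1 ± 2.28 to 37.7 ± 6.25 RPM (mean ± SD of 3 libraries), and the log2 change was 0.74 (SE 0.15, adjusted p = 0.038), or 0.076 with the block. It passed without HuCCT1/CD90+ replicate 2 (adjusted p = 0.034) and not without any of the other 5 libraries (0.081 to 0.12). CENPA lies on chromosome 2 from 26786056 to 26794589.

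None of the other 7 genes passed with limma, while edgeR and DESeq2 each called CENPA and CENPE. CENPF, a large protein of the outer kinetochore, had 143.9, 140.9 and 182 RPM against 161, 119 and 131 RPM, which overlapped (log2 change -0.18, 95% confidence interval -0.63 to 0.26, adjusted p = 0.57). Of the subunits of the NDC80 complex, which grips microtubules, NUF2, SPC24 and SPC25 had log2 changes of -0.22, -0.40 and -0.03 and NDC80 of 0.23. With single libraries left out, the log2 change of SPC24 ran from -0.52 to -0.19. NDC80 was read weakly, with 17 to 30 reads per library, and its 95% confidence interval ran from -0.28 to 0.73. CENPE, a kinesin of the kinetochore, spanned 10.8 to 17.7 RPM and 13.0 to 33.0 RPM (log2 change 0.69, interval -0.39 to 1.77, adjusted p = 0.36 with limma, 0.019 with edgeR and 0.016 with DESeq2). With the neighbour median taken off its log2 change was 0.35. CENPM was slightly lower in each HuCCT1/CD90+ library, at 28.1 to 30.9 RPM against 32.1 to 38.6 RPM (log2 change -0.21, adjusted p = 0.17).

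None of the 7 genes of the Polo and Aurora kinases and their partners passed the test, while 2 had an unadjusted p of at most 0.05 and edgeR and DESeq2 each called 3. PLK1 and the Aurora kinases had differences of opposite sign. PLK1, which acts from mitotic entry to cytokinesis, had 384, 230.0 and 233 RPM in HuCCT1/CD90- against 208, 186 and 179.6 RPM in HuCCT1/CD90+. The libraries did not overlap, but HuCCT1/CD90- replicate 1 was far above the other libraries of its line (log2 change -0.52, 95% confidence interval -1.16 to 0.12, adjusted p = 0.24). It was called by edgeR and DESeq2 (adjusted p = 0.016 each) and, without both libraries numbered 1, by limma (log2 change -0.34, adjusted p = 0.038). The log2 change was -0.28 without HuCCT1/CD90- replicate 1 (adjusted p = 0.12), -0.22 with the chromosome median taken off (0.64) and -0.21 with the neighbour median of -0.31 taken off (0.67).

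AURKA, the kinase of the spindle poles, had 20.1, 13.1 and 11.6 RPM against 27.6, 23.3 and 20.2 RPM (log2 change 0.66, adjusted p = 0.16). AURKB, the kinase of the chromosomal passenger complex, had 11.8, 9.31 and 7.47 RPM against 17.8, 11.4 and 11.4 RPM (log2 change 0.46, adjusted p = 0.32). For PLK1, AURKA and AURKB alike, replicate 1 was the highest library within each line. TPX2, which activates AURKA at the spindle, had 179 to 191 RPM against 209 to 274 RPM (log2 change 0.39, adjusted p = 0.085). Of the other subunits of the passenger complex, BIRC5 (survivin) and CDCA8 (borealin) had log2 changes of -0.02 and -0.04, and INCENP of 0.34 (interval -0.05 to 0.74, adjusted p = 0.22).

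None of the 5 genes of the spindle checkpoint passed the test, with MAD2L1 alone at an unadjusted p of at most 0.05 and alone called by edgeR and by DESeq2. BUB1, a kinetochore kinase of the checkpoint, had 123, 82.7 and 105 RPM in HuCCT1/CD90- against 152, 115 and 141 RPM in HuCCT1/CD90+ (log2 change 0.40, 95% confidence interval -0.11 to 0.91, adjusted p = 0.26). Within each replicate number HuCCT1/CD90+ was the higher, and with the number as a block BUB1 passed (adjusted p = 0.048). MAD2L1, which inhibits the APC/C activator CDC20, had 83.2 to 101 RPM against 104 to 143 RPM (log2 change 0.40, adjusted p = 0.16). Its log2 change was 0.20 without both libraries numbered 1. BUB1B, BUB3 and TTK had log2 changes of -0.18, -0.21 and -0.25, and for all 5 genes the interval lay within a 2-fold change.

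On the side of the APC/C, CDC20 had 347, 329 and 216 RPM in HuCCT1/CD90- against 215, 268 and 192 RPM in HuCCT1/CD90+, which overlapped (log2 change -0.38, 95% confidence interval -1.03 to 0.27). UBE2C, the ubiquitin-conjugating enzyme of the APC/C, had 209 to 241 RPM against 209 to 278 RPM (log2 change 0.17). PTTG1, the gene of securin, which guards separase until anaphase, had the largest fold change of the 48 by value but few reads, with 11, 24 and 27 reads in HuCCT1/CD90- and 134, 31 and 47 reads in HuCCT1/CD90+. Its log2 change was 1.34 with a 95% confidence interval from -0.15 to 2.84 (adjusted p = 0.20), whereas edgeR and DESeq2 called it (log2 change 1.90 and 1.91, adjusted p = 0.0017 and 0.00038). The log2 change was 0.83 without HuCCT1/CD90+ replicate 1 and 0.56 without both libraries numbered 1. PTTG1 has near-identical copies in the genome, so its reads could be shared and its value is uncertain.

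None of the 9 kinesin motors passed the test (1 at an unadjusted p of at most 0.05, 2 with edgeR and 2 with DESeq2), with 3 positive and 6 negative log2 changes and a median of -0.12. KIF11, the motor that pushes spindle poles apart, had 19.3, 16.3 and 19.0 RPM in HuCCT1/CD90- against 16.6, 9.67 and 12.6 RPM in HuCCT1/CD90+ (log2 change -0.49, 95% confidence interval -1.05 to 0.08, adjusted p = 0.22). KIF2C, which takes microtubules apart at the centromere, and KIF20A, a motor of cytokinesis, were lower in each HuCCT1/CD90+ library, at 128 to 139.7 RPM against 143 to 225 RPM and at 59.7 to 75.2 RPM against 78.4 to 84.2 RPM. Their log2 changes were -0.43 and -0.31, with adjusted p-values of 0.21 and 0.11, and edgeR and DESeq2 called KIF2C lower (adjusted p = 0.026 and 0.028). KIF20B had the highest value of the group (log2 change 0.64, interval -0.12 to 1.40). The count tools edgeR and DESeq2 called KIF20B higher (adjusted p = 0.014 and 0.011), and without both libraries numbered 1 its log2 change was 0.31. KIF4A, whose reads could be shared with a near-identical copy, KIFC1, KIF14, KIF18A and KIF23 ranged from -0.29 for KIF23 to 0.12 for KIF18A.

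The spindle microtubule-binding proteins HMMR, NUSAP1, DLGAP5 and CKAP2 had log2 changes of -0.06, -0.30, 0.22 and 0.40, and none passed with limma (none had an unadjusted p of at most 0.05), while edgeR and DESeq2 each called 1, CKAP2. TOP2A, the topoisomerase that untangles sister chromatids, had 424, 297 and 354 RPM in HuCCT1/CD90- against 300.0, 196 and 253 RPM in HuCCT1/CD90+. The lines overlapped, though within each replicate number HuCCT1/CD90+ was the lower. The log2 change was -0.53 (SE 0.22, adjusted p = 0.20), and with replicate number as a blocking term TOP2A passed (adjusted p = 0.026), as it did with edgeR and DESeq2 (0.017 each) and when genes averaging under 10 RPM were left out (0.038). 

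The libraries of each line differed among themselves in these genes as a group. The 48 genes summed to 5621, 4889 and 5244 RPM in HuCCT1/CD90- against to 6287, 4914 and 5268 RPM in HuCCT1/CD90+, so the sums of the lines overlapped, while within each replicate number the HuCCT1/CD90+ sum was the higher, by little for replicates 2 and 3. HuCCT1/CD90+ replicate 1 was the highest library of its line for 37 of the 48 genes and replicate 2 for 3, where over all 8794 genes averaging 10 RPM or more these libraries were the highest for 39.3% and 34.2%. The median gene of the 48 lay 0.31 (log2) above the mean of the other libraries of the line in HuCCT1/CD90+ replicate 1 and 0.27 below in replicate 2, against 0.02 above and 0.01 below over all genes. In HuCCT1/CD90- replicate 2 was the highest library for 5 of the 48 genes, against 34.3% of all genes, and its median gene lay 0.14 below the other libraries of the line. Without both libraries numbered 1, which was chosen after the data were seen, the median log2 change of the 48 genes was 0.07 and 3 genes passed (ECT2 higher, CDC25B and PLK1 lower), or 6.25% against 8.25% of all genes. With 1 library left out, between 1 and 4 genes were called higher and between 0 and 2 lower: 2 and 2 without HuCCT1/CD90- replicate 1, 1 and 2 without replicate 2, 1 and 0 without replicate 3, and 3 and 1, 4 and 0, and 1 and 0 without HuCCT1/CD90+ replicate 1, 2 and 3. In the same order, 14.1%, 12.8%, 11.8%, 12.1%, 12.2% and 10.6% of all genes were called in either direction in these fits. WEE1 was called in each of these 6 fits.

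**Figure D4:**
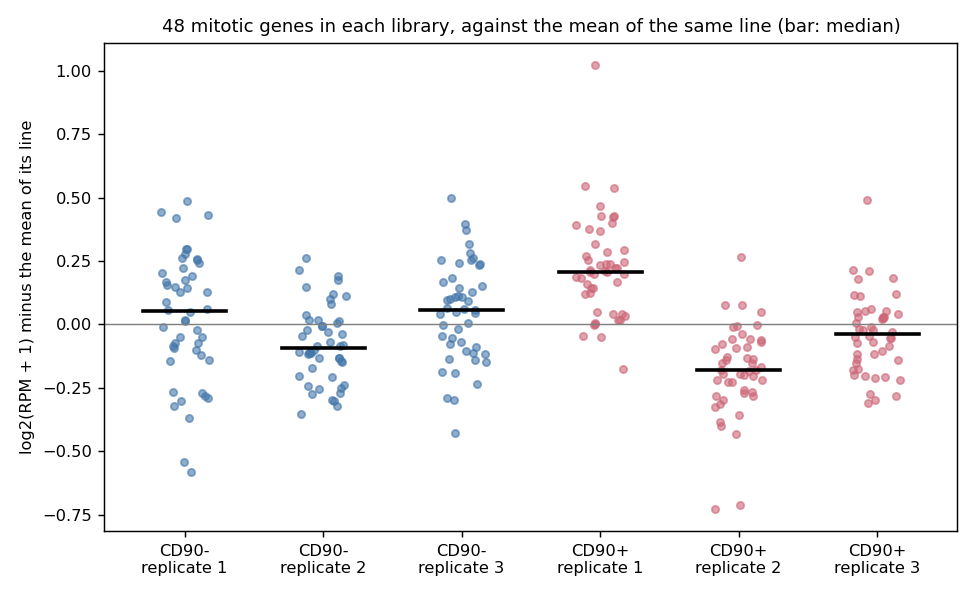
Each point is 1 of the 48 genes, as log2(RPM + 1) in a library minus the mean of the 3 libraries of its line, and the bar is the median over the genes. HuCCT1/CD90+ replicate 1 lies highest (median 0.21) and HuCCT1/CD90+ replicate 2 lowest (median -0.18), a gap wider than the median log2 change of 0.14 between the lines.

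The rest of the mitotic pathway was read from lists of other genes, some with the roles above and some with others, such as transcription factors and cohesin. Of 137 such genes 136 were found, and 7 of them rose, 5 fell and 124 did not pass, with a median log2 change of 0.04. This is 8.82% called, against 18.9% of all genes. Of the 21 factors that control late cell cycle genes, 1 rose and 4 fell, which is 23.8% called. Among them FOXM1, an activator of the G2/M genes, had 113 ± 17.2 RPM in HuCCT1/CD90- against 146 ± 16.6 RPM in HuCCT1/CD90+ (SD, n = 3 each) and did not pass (adjusted p = 0.18). MYBL2, which joins the complex that activates CHR promoters, fell from 36.5 ± 1.73 to 23.1 ± 4.02 RPM (log2 change -0.65, adjusted p = 0.041, or 0.065 with the block). RBL2, the pocket protein p130 that holds these promoters down in resting cells, fell from 77.0 to 43.6 RPM (log2 change -0.81, adjusted p = 0.0032), as did RBBP4 (-0.86) and NFYC (-0.62), a subunit of the factor that binds CCAAT. RBBP4 and NFYC lie on chromosome 1 and RBL2 on chromosome 16, where the median log2 changes were -0.32 and -0.30. TFDP2, a partner of the E2F factors, rose (0.57, adjusted p = 0.016, or 0.10 with the block), and its log2 change was 0.06 with the neighbours taken off.

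A few genes of the other lists passed the test. BORA, which helps AURKA to activate PLK1, rose from 10.6 ± 2.37 to 25.6 ± 6.82 RPM (SD, n = 3 each; log2 change 1.19, adjusted p = 0.041). UBE2S, which extends ubiquitin chains on APC/C targets, rose from 239.9 to 369 RPM (0.62, adjusted p = 0.020), the only one of 17 further APC/C genes to pass. Among 26 other kinetochore genes, SKA2 (0.99), CENPI (0.87) and HJURP (0.26), the chaperone of CENPA, rose and PMF1 fell (-0.61), and with the block none of them passed (adjusted p = 0.054 for SKA2, 0.065 for CENPI, 0.14 for HJURP and 0.12 for PMF1). Of 21 cohesin and condensin genes CDCA5, which protects cohesion between sister chromatids, rose (0.45, adjusted p = 0.030, or 0.074 with the block). Of 18 centrosome and spindle pole genes and 18 other G2/M genes, none passed with limma, while 4 and 7 of them had an unadjusted p of at most 0.05, edgeR called 1 and 6, and DESeq2 called 1 and 5. MKI67, the common marker of cycling cells, was 264 ± 46.8 RPM in HuCCT1/CD90- against 259.8 ± 10.2 RPM in HuCCT1/CD90+ (log2 change -0.01).

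The genes of S phase were set beside the mitotic genes. Of 20, none rose and 3 fell: TYMS, which makes thymidylate, from 206 to 98.5 RPM (log2 change -1.06, adjusted p = 0.0055), MCM3, a subunit of the replicative helicase, from 305 to 148 RPM (-1.03, adjusted p = 0.011), and CHAF1A (-0.47). Of all genes 9.52% fell, and of those averaging 10 RPM or more 14.1%. By value 8 of the 20 were lower with no overlap between the lines and 0 were higher with none. In either direction, 35.0% of all genes had no overlap. Of those averaging 10 RPM or more, as all 20 did, 52.5% had none. Of the 20, 8 had an unadjusted p of at most 0.05. The tools edgeR and DESeq2 each called 7, where they called 44.4% and 37.0% of all genes they tested. The median log2 change of the 20 was -0.11, that of the 48 mitotic genes 0.14, and whether the lists differ was not tested. Of 11 reference genes 2 rose (TFRC and GUSB) and 1 fell (TBP), with a median of 0.26.

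**Figure D5:**
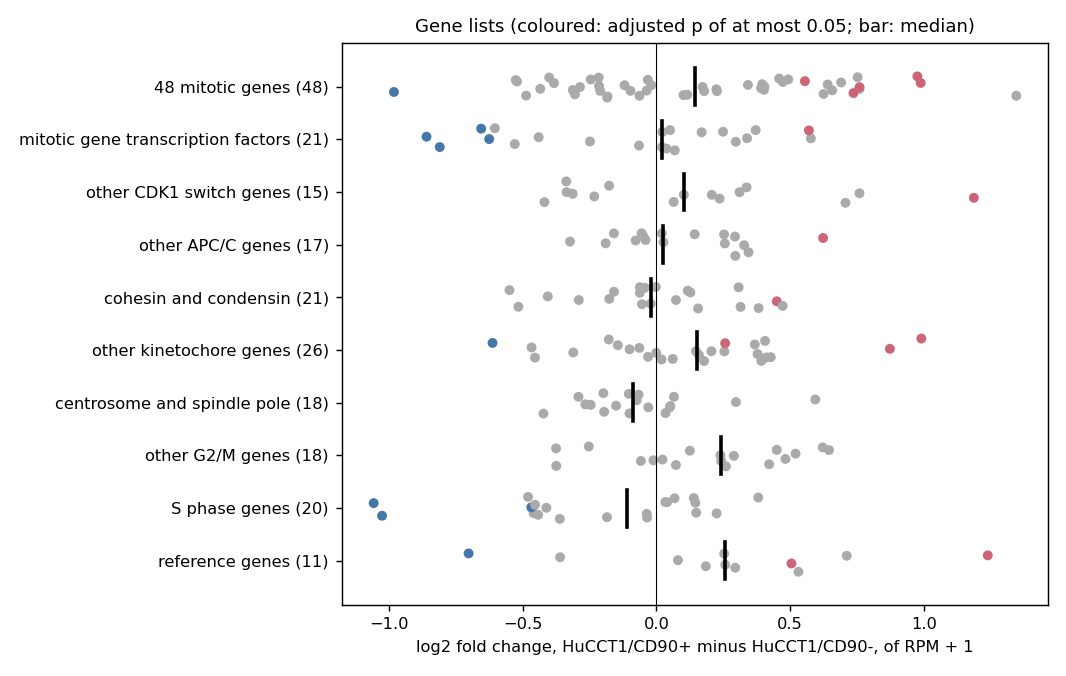
Log2 changes of RPM + 1 for the 48 mitotic genes and 9 other lists, with list sizes in brackets, black bars at the medians and coloured points at an adjusted p of at most 0.05, red for higher and blue for lower in HuCCT1/CD90+. The medians of all lists lie between -0.11 for S phase and 0.26 for the reference genes, and each list holds more grey than coloured points.

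The labelled cell type was checked on its markers. Of 7 cholangiocyte markers 5 rose in HuCCT1/CD90+ and none fell (71.4% called against 18.9% of all genes), KRT19 being present at 3042 to 4291 RPM in all libraries and EPCAM rising from 28.6 to 363 RPM. The 15 markers of other cell types summed to 107 to 140.5 RPM in HuCCT1/CD90- against 105 to 126 RPM in HuCCT1/CD90+, CD68 being the largest of them with means of 50.8 and 92.2 RPM. Of these 15, 3 of which averaged 10 RPM or more, 1 rose (CD68) and 7 fell, among them CDH5, DCN and PDGFRB (53.3% called in either direction). The rise of CD68 and these falls both enter the sums. PTPRC had no more than 1 read in any library. The part of these differences in the mitotic genes was not tested.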

How the data were processed

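RNA of 6 libraries was measured, 3 each of HuCCT1/CD90- and HuCCT1/CD90+, grouped by their labels. The authors aligned Ion AmpliSeq reads and deposited RPM per gene in 1 table, with hg19 and the Transcriptome Analysis Console named in the submitters' processing notes, and the strand setting is not given in the sources used here. Whole read counts were recovered for 100% of the deposited RPM values, within 0.1 read. The amplicon positions were not used, and positions of genes come from RefSeq (GRCh38.p14), matched by symbol or synonym for 19883 genes. All columns of the table belonged to a labelled library (0 others).

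Differences were fitted with limma 3.58.1 (R 4.3.3) on log2(RPM + 1) over all 20811 genes with no filter. The count tests were edgeR 4.0.16 (quasi-likelihood, TMM) and DESeq2 1.42.0 on the recovered reads. The fit was tested on simulated data first. RPM per library was printed for called genes (adjusted p up to 0.05) and for fixed examples of each role (CCNB1, CDK1, CDC20, PLK1, AURKA, AURKB, BUB1, CENPF, KIF11, TOP2A and WEE1). Of each other list at most 4 called genes with the largest fold changes were named, besides FOXM1, MYBL2 and MKI67. The reads of PTTG1, TFDP2 and the markers of cell types were picked out after their values were seen. The 48 genes and all lists were chosen with earlier results of these data known, so no count over a list is independent support. KIF18B was not found under this symbol. Where nothing says that libraries came from separate cultures, p-values measure only the spread between these libraries. Counting error alone understates the error of a read number, since reads without molecular identifiers are not independent molecules.

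Same-numbered libraries of both lines deviated together (r = 0.21, 0.32 and 0.18), and differently numbered ones had r of -0.29 to 0.07, so the numbers were taken to pair the libraries. The deviations were taken from the mean of each line, so these values of r depend on each other. The pairing rests on this check alone, since the sources used here do not say what a number marks. No libraries were copies of each other (chi-square per degree of freedom at least 9.18). Alternatives were other offsets, filters, scalings and tests, the replicate block, the chromosome median taken off and each library left out. The median of 50 neighbours taken off and both libraries numbered 1 left out were added after seeing the data.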

Additional observations from a re-analysis of the deposited data

How the results depend on the processing

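WEE1 kept its call with each single library left out, with the replicate block and with the chromosome or neighbour median taken off, but had an adjusted p of 0.053 without both libraries numbered 1. As reported, 5 of the 48 genes were higher, 1 was lower and 8 passed the fold of 1.5. With the replicate block 3 were higher (WEE1, ECT2 and, newly, BUB1) and 1 lower (TOP2A, newly), and ANLN, CENPA, CCNA2 and CDC25B lost their calls. Filters at a mean of 1 and 10 RPM gave 11 and 10 higher, the latter with 4 lower, where 41.7% and 42.2% of all genes tested were called. edgeR and DESeq2 gave 16 higher and 4 lower each, and 13 genes passed the fold of 1.5 with edgeR. With the chromosome median taken off 3 were higher and 5 passed the fold, and with the neighbour median 2 and 4, where 16.4% and 16.0% of all genes were called. A fold of 2 left 0. Without both libraries numbered 1, 1 was higher and 2 were lower. With single libraries left out, 1 to 4 were higher and 0 to 2 lower. The causes of these shifts were not tested, apart from fewer genes or samples by construction. The median log2 change of the 48 genes ranged from 0.03 to 0.23 with single libraries left out.

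Of 909 single-gene values under 19 alternatives 791 kept direction and side of the threshold, 36 lost and 50 gained a call, and 32 changed sign, none of these with an adjusted p of at most 0.05. With the chromosome median taken off, the log2 changes that changed sign were CDCA8 0.28, TTK 0.051, CENPF 0.13, NUF2 0.094, KIF14 0.21, KIF18A -0.12 and KIFC1 0.18. With the neighbour median taken off they were BIRC5 0.012, CDCA8 0.11, TTK 0.16, CENPF 0.14, NUF2 0.13, KIF14 0.19, KIF18A -0.094, KIFC1 0.18, DLGAP5 -0.018 and PRC1 -0.13. Without both libraries numbered 1 they were BIRC5 0.13, CDCA8 0.083, NDC80 -0.0061 and KIF18A -0.16. With single libraries left out, values ran from -0.16 to 0.19 for BIRC5, -0.10 to 0.085 for CDCA8, -0.13 to 0.058 for SPC25, -0.39 to 0.15 for KIF14, -0.12 to 0.26 for KIF18A, -0.033 to 0.25 for KIF4A and -0.26 to 0.086 for HMMR. NDC80, with 17 to 30 reads per library, and PTTG1, with 11 to 134, rest on few reads.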
